A study of Mus musculus with 12 samples.

Results

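The potassium channel genes of the mouse were followed in neural progenitor cells (NPCs) of the subventricular zone (SVZ), the stem-cell niche along the lateral ventricle. They were chosen by name: a gene was taken when its symbol began with Kcn, further letters and a digit, which matched 96 of the 24108 listed genes. Kcnj10 and the antisense transcript Kcnq1ot1 were set aside, leaving 94 genes. By family, 8 were Kv1 (Shaker), 2 Kv2 (Shab), 4 Kv3 (Shaw), 3 Kv4 (Shal), 10 silent modifiers of Kv channels, 5 Kv7 (KCNQ), 8 EAG, ERG and ELK, 14 inward rectifiers, 14 leak channels with a pair of pore domains (K2P), 8 calcium- or sodium-activated with a pH-gated relative, 16 auxiliary subunits and 2 antisense entries named after channel genes. Of the 94, 57 passed the filter on low counts and were tested, 33 had counts but did not pass, and 4 had no count. RNA-seq counts came from 12 libraries in 4 groups of 3: co-cultured p53-/- NPCs, p53-/- NPCs kept alone, co-cultured p53+/+ NPCs and p53+/+ NPCs kept alone. NPCs came from C57BL/6 mice at postnatal day 9 to 12, and were expanded with EGF and bFGF. Per the study's methods for its loss-of-function work, p53 was removed acutely in culture from cells with floxed alleles by an adenovirus that drives Cre from a CMV promoter, with a virus that carries the promoter only as control. For 48 h the NPCs grew on primary brain microvascular endothelial cells (bmvECs) as a monolayer, from which they were lifted again by selective trypsinization (co-culture), or on laminin (alone). Contact with these cells is used to bring NPCs into quiescence. The libraries were numbered by experiment (17_9, 25_9 and 1_10), and values are given in that order.

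Potassium channels let potassium ions leave or enter a cell along their gradient and thereby set the resting membrane potential and end electrical excitation. Voltage-gated channels open on depolarization, calcium- and sodium-activated channels respond to ions inside the cell, inward rectifiers and K2P channels carry current near rest, and auxiliary subunits change the gating or trafficking of the pore-forming ones. In the SVZ, astrocyte-like stem cells are known for a negative resting potential and a large potassium conductance at rest, while neuroblasts and neurons use the voltage-gated families.

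Libraries held 16509710 to 22245224 counts, and potassium channel genes held 0.0833 to 0.17% of them. Trp53, the gene removed, had 13.7 to 19.3 CPM (read counts scaled to the effective library size) in p53-/- co-culture and 11.7 to 17.4 CPM in p53-/- alone, against 61.8 to 78.8 CPM in p53+/+ co-culture and 80.3 to 109 CPM in p53+/+ alone. Its target Cdkn1a, the cell-cycle inhibitor p21, had 14.5 to 21.7 and 4.74 to 31.2 CPM in the same p53-/- groups, against 371 to 398 and 350.2 to 458 CPM in the p53+/+ groups, so all 12 libraries matched their genotype. All 12 neural progenitor and astroglial markers passed the filter in these libraries. Markers of endothelial cells moved with co-culture: the summed level of 22 of them was 169 to 213 CPM in p53-/- co-culture against 37.6 to 48.5 CPM in p53-/- alone, and 178 to 282 CPM in p53+/+ co-culture against 35.5 to 41.5 CPM in p53+/+ alone. Of the 21 endothelial markers tested, co-culture raised 20 in p53-/- and 21 in p53+/+ NPCs, while Sox17 was at 0 in both groups alone and Tie1 in p53+/+ alone. The summed level of the 12 neural progenitor and astroglial markers moved with co-culture too: it was 20300 to 24000 CPM in p53-/- co-culture against 12000 to 13900 CPM in p53-/- alone, and 26600 to 36100 CPM in p53+/+ co-culture against 13900 to 17100 CPM in p53+/+ alone. Most of that rise came from the astrocyte filament gene Gfap. It averaged 7023 CPM in p53-/- co-culture against 292 CPM in p53-/- alone, and 13080 CPM in p53+/+ co-culture against 556 CPM in p53+/+ alone. By gene, co-culture raised 6 and lowered 2 of the 12 in each genotype. Of all genes tested, it raised 18.8 and lowered 17.0% in p53-/- NPCs, and 21.2 and 18.3% in p53+/+ NPCs. The marker Nes averaged 996 CPM in p53-/- co-culture against 1576 CPM in p53-/- alone. In p53+/+ NPCs Nes averaged 964 CPM in co-culture against 1874 CPM alone. The part that endothelial or astroglial RNA has in the co-culture results on potassium channel genes was not tested. In these bulk samples, fewer cells of a type and less RNA per cell cannot be told apart.

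The promoters of 4 genes on which the results turn are shown first: Kcnc1 and Kcnma1, which were lower in p53-/- NPCs, and Kcna6 and Kcnn3, which were higher in co-culture. Each runs from 250 bases before to 50 bases after the RefSeq start, on GRCm38.p6. The windows lie at chr7:46396218-46396517 on the plus strand (Kcnc1), chr14:24004156-24004455 on the minus strand (Kcnma1), chr6:126740625-126740924 on the minus strand (Kcna6) and chr3:89519914-89520213 on the plus strand (Kcnn3). Capitals mark matches on either strand to the GC box GGGCGG, the CCAAT box, the cAMP response motif TGACG and the p53 decamer.
Kcnc1: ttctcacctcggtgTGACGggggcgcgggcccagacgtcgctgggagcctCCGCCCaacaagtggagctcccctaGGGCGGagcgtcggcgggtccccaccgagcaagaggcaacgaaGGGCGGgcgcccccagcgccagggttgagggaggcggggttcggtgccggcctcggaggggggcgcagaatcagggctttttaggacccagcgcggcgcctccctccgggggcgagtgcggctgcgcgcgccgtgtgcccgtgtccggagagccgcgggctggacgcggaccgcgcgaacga
Kcnma1: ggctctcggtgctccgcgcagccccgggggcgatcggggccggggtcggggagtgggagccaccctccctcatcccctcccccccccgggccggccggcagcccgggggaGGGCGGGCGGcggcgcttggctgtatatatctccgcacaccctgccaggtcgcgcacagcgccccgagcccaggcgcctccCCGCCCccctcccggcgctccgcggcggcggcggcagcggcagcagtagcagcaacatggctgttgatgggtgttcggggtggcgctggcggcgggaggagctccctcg
Kcna6: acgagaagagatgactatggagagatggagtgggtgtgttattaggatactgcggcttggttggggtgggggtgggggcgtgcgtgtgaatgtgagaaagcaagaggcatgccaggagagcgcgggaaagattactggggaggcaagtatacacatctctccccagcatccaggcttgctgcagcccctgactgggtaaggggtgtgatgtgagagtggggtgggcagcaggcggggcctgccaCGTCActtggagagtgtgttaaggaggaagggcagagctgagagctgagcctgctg
Kcnn3: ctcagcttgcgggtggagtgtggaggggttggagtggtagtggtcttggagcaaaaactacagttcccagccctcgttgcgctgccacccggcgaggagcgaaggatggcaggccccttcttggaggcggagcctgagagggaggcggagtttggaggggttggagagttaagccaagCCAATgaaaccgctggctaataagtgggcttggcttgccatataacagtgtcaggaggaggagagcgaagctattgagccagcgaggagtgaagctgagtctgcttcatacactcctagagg
Kcnc1 and Kcnma1 had GC-rich windows (74.7 and 78% G or C) with 3 GC boxes each, counting overlapping matches. Kcna6 and Kcnn3 had 58.3 and 57.7% G or C and no GC box, and Kcnn3 held 1 CCAAT box. The p53 decamer was in none of the 4 windows. Of the 94 genes, 68 had a window in the RefSeq table, 93 windows in all with a median of 58.0% G or C, against 52.7% in all 32851 windows. The GC box was in 47.3% of the potassium channel windows against 35.7% of all windows, the CCAAT box in 30.1% against 37.4%, TGACG in 18.3% against 20.8%, and the p53 decamer in 4.3% against 8.36%. Such matches describe letters in these windows and were not tested as binding sites.

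To compare levels between genes, CPM was divided by the length of annotated exon (GENCODE M21), which gives CPM per kb. A few genes held the highest levels. In p53-/- co-culture, Kcnip3, a calcium-binding partner of Kv4 channels, led with a mean of 56.6 CPM per kb (libraries 50.05 to 60.02), ahead of Kcnd3, a Kv4 channel that gives fast transient current, with 31.2 (27.6 to 36.7) and the inward rectifier Kcnj16 with 29.1 (25.6 to 34.8). Kcnd3 was above Kcnj16 in each of the 3 libraries there, though their ranges overlapped, and Kcnc1, a fast voltage-gated channel of the Kv3 family, stood at rank 6 with 14.4 CPM per kb (12.97 to 16.7). In p53+/+ alone the order differed: Kcnc1 led with 56.8 CPM per kb (42.1 to 70.4), followed by Kcnip3 with 46.7 (35.3 to 56.3) and Kcnd3 with 31.8 (28.3 to 35.3). Next came the leak channel Kcnk1 with 25.7 CPM per kb (23.6 to 26.8) and Kcnj16 with 23.5 (20.1 to 26.7). Kcnc1 was above Kcnip3 in each of the 3 libraries, though their ranges overlapped, while Kcnk1 was above Kcnj16 in 2 of the 3, so the order of that pair is within the spread. Kcnj16 forms channels with Kcnj10, which lies outside the 94 genes and had means of 1763 CPM in p53-/- co-culture and 1296 CPM in p53-/- alone, and 2355 and 1937 CPM in the matching p53+/+ groups. Lengths are of annotated gene models and not of the transcripts in these cells.

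**Figure D1:**
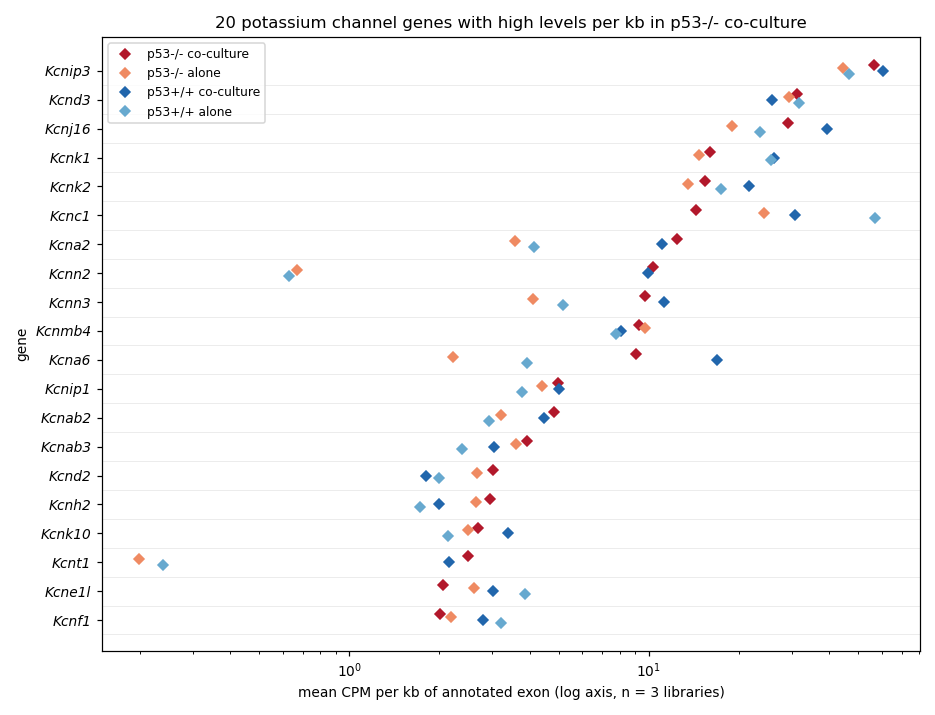
Mean CPM per kb of annotated exon (log axis, n = 3 libraries) of 20 potassium channel genes among those with the highest level in p53-/- co-culture, with 1 diamond per group. Kcnip3, Kcnd3 and Kcnj16 lead in p53-/- co-culture, and Kcnn2 and Kcnt1 sit far lower in both groups alone than in both co-culture groups.

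Co-culture against alone asks which potassium channel genes change when NPCs lie on bmvECs. In p53-/- NPCs, co-culture raised 20 of the 57 tested genes and lowered 2 (35.1 and 3.51%), against 18.8 and 17.0% of all 13745 genes tested. In p53+/+ NPCs it raised 20 and lowered 4 (35.1 and 7.02%), against 21.2 and 18.3% of all genes (edgeR quasi-likelihood test, Benjamini-Hochberg adjusted p under 0.05). The median log2 fold change over the 57 genes was 0.557 in p53-/- and 0.378 in p53+/+ NPCs, where that over all genes was -0.0117 and 5e-04. In both genotypes 14 genes were higher and 2 lower, 6 were called in p53-/- NPCs and not in p53+/+, and 8 in p53+/+ NPCs and not in p53-/-. All 30 genes called in either had the same sign in both, and none of them passed the interaction test. The 3 experiments pair the libraries, and with the experiment as a block the p53-/- counts were 23 higher and 2 lower (40.4 and 3.51%), against 24.3 and 23.2% of all genes. In p53+/+ NPCs the block gave 24 higher and 8 lower (42.1 and 14%), against 26.2 and 24.1% of all genes. Without the 4 libraries of experiment 25_9, the p53+/+ counts fell to 9 higher and 1 lower of 56 tested (16.1 and 1.79%), the lowest of 15 fits in which 1 library or 1 experiment was left out, and in the same fit 8.77 and 5.66% of all genes passed. The p53-/- counts there were 10 higher and 1 lower (17.9 and 1.79%), against 9.75 and 5.83% of all genes, so fewer of all genes passed as well. Among the genes that kept their call in all 15 fits were Kcna6, Kcnk5, Kcnn1, Kcnn2, Kcnn3 and Kcnt1 in both genotypes and Kcnj14 in p53+/+ NPCs. Kcnq1 in both genotypes and Kcnq3 in p53-/- NPCs kept theirs too. These last genes passed the filter on low counts only through co-culture libraries, where they are high. Endothelial markers and the summed level of neural progenitor and astroglial markers, given above, were higher in the same comparisons, and their part was not tested.

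**Figure D2:**
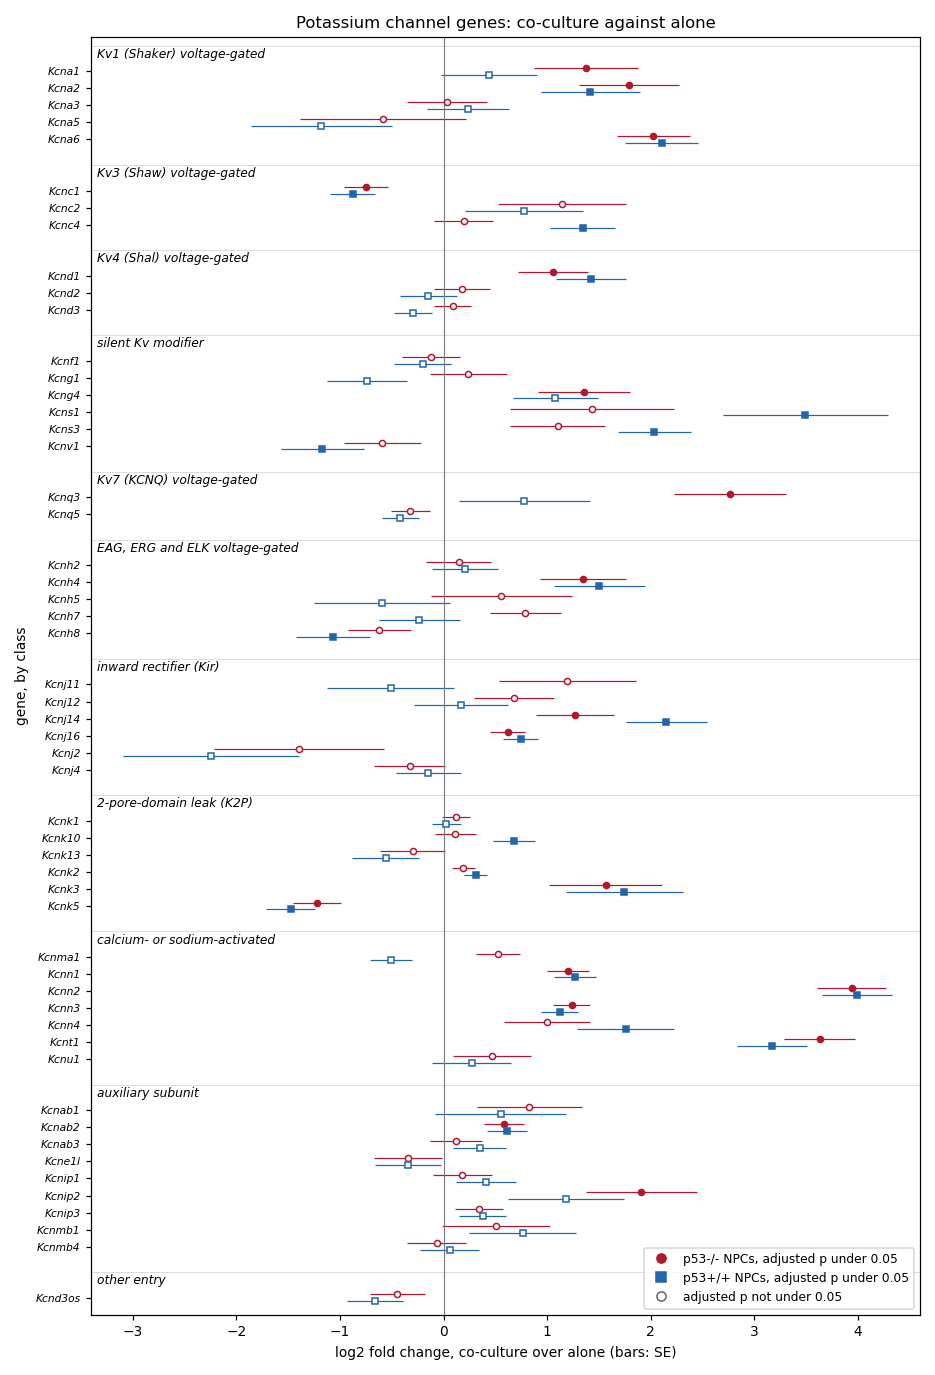
Log2 fold change of co-culture over alone (bars: SE) for 53 of the 57 tested potassium channel genes by class, in p53-/- (circles) and p53+/+ NPCs (squares), 3 libraries a group, filled where the adjusted p was under 0.05. Kcnn2 and Kcnt1 lie farthest right in p53-/- NPCs, at 3.94 and 3.63, and Kcnk5 and Kcnc1 are lower in both genotypes. Kcnq1, with 1 count in each group alone, and the genes not reported by name are not drawn.

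Calcium- and sodium-activated channels held some of the largest changes. Of the 7 tested, 4 were higher in p53-/- and 5 in p53+/+ co-culture and none was lower (edgeR without the block), with medians of 1.20 and 1.27 on the log2 scale. With the block Kcnma1 was lower in p53+/+ co-culture, as it was in DESeq2 (adjusted p = 0.0424), and its values are given with the interaction. Kcnn2 encodes a small-conductance (SK) channel opened by calcium through calmodulin. It had 53.3, 29.6 and 31.3 CPM in p53-/- co-culture, against 3.004, 2.87 and 1.498 CPM in p53-/- alone. In p53+/+ NPCs it had 46.4, 38.2 and 25.3 CPM in p53+/+ co-culture, against 2.88, 1.84 and 2.24 CPM in p53+/+ alone. Every co-culture library was above every library alone, by a log2 fold change of 3.94 ± 0.33 (SE, adjusted p = 4.89e-06) in p53-/- and 3.99 ± 0.34 (SE, adjusted p = 3.26e-06) in p53+/+ NPCs. Kcnt1, a channel opened by intracellular sodium, had 23.9, 11.2 and 11.9 CPM in p53-/- co-culture, against 1.65, 1.27 and 0.832 CPM in p53-/- alone. In p53+/+ NPCs Kcnt1 had 16.4, 13.9 and 10.4 CPM in p53+/+ co-culture, against 1.44, 1.44 and 1.63 CPM in p53+/+ alone. Its groups did not overlap, and the log2 fold changes were 3.63 ± 0.34 (SE, adjusted p = 1.21e-05) in p53-/- and 3.17 ± 0.34 (SE, adjusted p = 2.17e-05) in p53+/+ NPCs. For both genes, experiment 17_9 was the highest of the 3 co-culture libraries in each genotype.

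The other SK genes rose by less and with a narrow spread. Kcnn3 had 28.6, 25.97 and 29.3 CPM in p53-/- co-culture, against 8.91, 14.4 and 12.3 CPM in p53-/- alone. The p53+/+ values of Kcnn3 were 34.7, 27.2 and 35.5 CPM in p53+/+ co-culture, against 15.9, 13.1 and 15.8 CPM in p53+/+ alone. These groups stood apart, with log2 fold changes of 1.24 ± 0.18 (SE, adjusted p = 0.000301) in p53-/- and 1.12 ± 0.18 (SE, adjusted p = 0.000396) in p53+/+ NPCs. Kcnn1 had 6.31, 6.18 and 5.86 CPM in p53-/- co-culture, against 2.62, 3.23 and 2.11 CPM in p53-/- alone. In p53+/+ NPCs the values of Kcnn1 were 6.32, 7.19 and 5.53 CPM in p53+/+ co-culture, against 2.62, 2.73 and 2.54 CPM in p53+/+ alone. Kcnn1 was thus at nearly the same level in all 6 libraries in co-culture, 5.53 to 7.19 CPM, and its log2 fold changes were 1.20 ± 0.20 (SE, adjusted p = 0.000895) and 1.27 ± 0.21 (SE, adjusted p = 0.000468). Kcnn4, the intermediate-conductance channel of microglia, endothelium and blood cells, was low, with means of 1.103 ± 0.298 CPM in p53+/+ co-culture and 0.323 ± 0.18 CPM in p53+/+ alone (SD, n = 3). It was higher in p53+/+ co-culture by 1.76 ± 0.46 (SE, adjusted p = 0.0096), a call lost without experiment 25_9 (adjusted p = 0.173). In p53-/- NPCs its log2 fold change was 1.00 ± 0.41 (SE, adjusted p = 0.0747). Kcnn4 passed the filter on low counts only with co-culture libraries, where it is high. Its call is thus no separate support for a rise. In GENCODE M21, exons of Kcnn1 and Kcnn2, and of other called genes (among them Kcna6, Kcnh7, Kcnk1, Kcnk2, Kcnma1 and Kcnq1), overlap genes on the other strand, and the strand setting of the counting is not given in the sources used here.

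**Figure D3:**
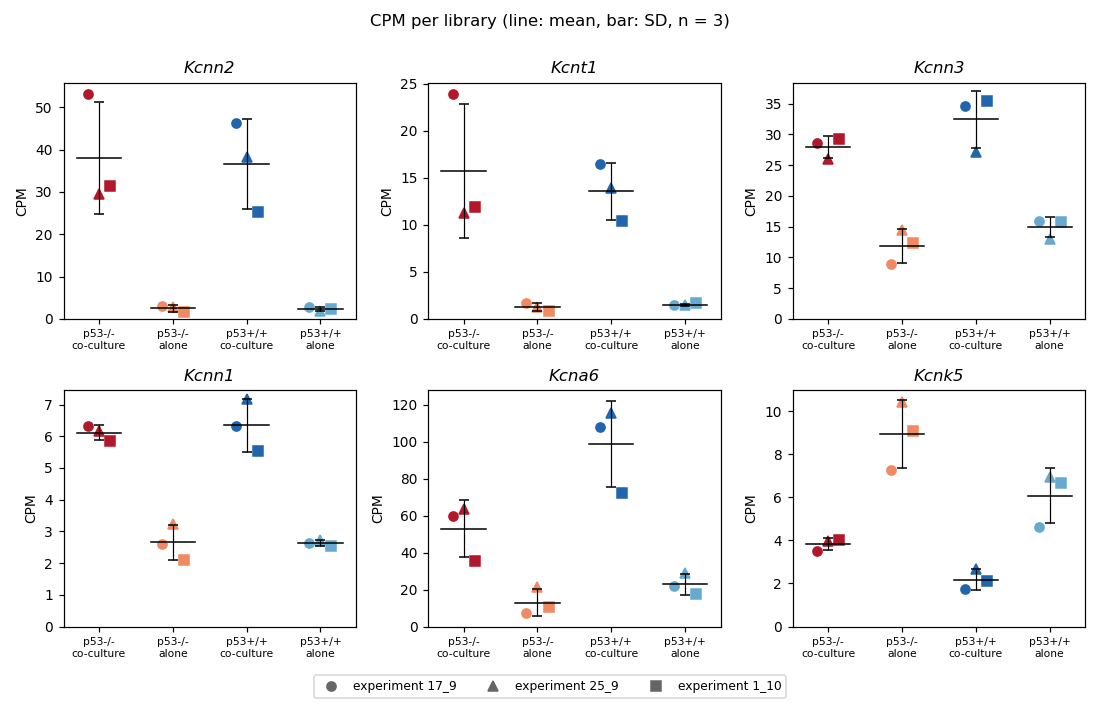
CPM per library of Kcnn2, Kcnt1, Kcnn3, Kcnn1, Kcna6 and Kcnk5 in p53-/- co-culture, p53-/- alone, p53+/+ co-culture and p53+/+ alone, with 1 symbol per experiment, the mean as a line and the SD as a bar (n = 3). The first 5 genes are higher in every co-culture library than in any library alone of the same genotype, and Kcnk5 is lower.

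Kv1 (Shaker) channels, which open at low voltages and hold back repetitive firing in axons, gave 3 higher of 5 tested in p53-/- and 2 in p53+/+ co-culture. Kcna6 had 59.95, 63.6 and 35.2 CPM in p53-/- co-culture, against 7.32, 21.2 and 10.3 CPM in p53-/- alone. Its p53+/+ values were 108, 116 and 72.03 CPM in p53+/+ co-culture, against 22, 28.9 and 17.8 CPM in p53+/+ alone. All co-culture libraries lay above those alone, with log2 fold changes of 2.03 ± 0.35 (SE, adjusted p = 0.00107) and 2.11 ± 0.35 (SE, adjusted p = 0.000569). Kcna2 had 146, 139 and 158 CPM in p53-/- co-culture, against 11.2, 58.7 and 57.98 CPM in p53-/- alone. In p53+/+ NPCs Kcna2 had 129, 112 and 154 CPM in p53+/+ co-culture, against 22.8, 57.01 and 67.7 CPM in p53+/+ alone. Among the libraries alone, those of experiment 17_9 were the lowest in both genotypes, and the groups did not overlap. Log2 fold changes of Kcna2 were 1.79 ± 0.48 (SE, adjusted p = 0.0123) in p53-/- and 1.42 ± 0.48 (SE, adjusted p = 0.0321) in p53+/+ NPCs. The p53-/- call was lost without experiment 25_9 (adjusted p = 0.0634), and the p53+/+ call in 7 of 15 fits with libraries left out, 5 of them without 1 library (adjusted p up to 0.128). Kcna1, the founding member of the family, had 5.41, 3.92 and 2.82 CPM in p53-/- co-culture, against 2.42, 1.55 and 0.666 CPM in p53-/- alone, and rose by 1.38 ± 0.50 (SE, adjusted p = 0.0466), a call lost in 8 of 15 fits with libraries left out, 7 of them without 1 library (adjusted p up to 0.213). In p53+/+ NPCs Kcna1 had 7.46, 7.19 and 4.21 CPM in p53+/+ co-culture, against 7.999, 3.82 and 2.19 CPM in p53+/+ alone. There the groups overlapped, and the log2 fold change was 0.44 ± 0.46 (SE, adjusted p = 0.475).

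Kcna5, a Kv1 gene, was not called without the block. With it, Kcna5 was lower in p53+/+ co-culture, with a log2 fold change of -1.18 (adjusted p = 0.00497). Kcna5 passed the filter on low counts only with libraries kept alone, where it is high, so this call is no separate support for a fall.

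The Kv3 (Shaw) genes, whose channels open at high voltages and close fast, moved in both directions. Kcnc1 was the most abundant of them and was lower in co-culture. It had 122, 128 and 157 CPM in p53-/- co-culture, against 179, 249 and 255 CPM in p53-/- alone. The p53+/+ values were 246, 251 and 373 CPM in p53+/+ co-culture, against 395, 543 and 661 CPM in p53+/+ alone. The groups stood apart in each genotype, by a log2 fold change of -0.75 ± 0.22 (SE, adjusted p = 0.0167) in p53-/- and -0.88 ± 0.22 (SE, adjusted p = 0.00635) in p53+/+ NPCs. Its p53-/- call was lost in 5 of 15 fits with libraries left out, 4 of them without 1 library (adjusted p up to 0.181), and the p53+/+ call without experiment 25_9 (adjusted p = 0.123). Kcnc4 had 2.45, 2.18 and 1.58 CPM in p53+/+ co-culture, against 0.562, 1.04 and 0.814 CPM in p53+/+ alone. It rose by 1.34 ± 0.32 (SE, adjusted p = 0.00509) in p53+/+ NPCs, a call lost without experiment 25_9 (adjusted p = 0.0576), while in p53-/- NPCs it differed by 0.19 ± 0.29 (SE, adjusted p = 0.631). The difference between the genotypes was not past the threshold (interaction, adjusted p = 0.684). Kcnc2 was not called, with log2 fold changes of 1.15 and 0.78 (adjusted p = 0.165 and 0.298).

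Among the Kv4 (Shal) genes, which give transient current below the firing threshold, Kcnd1 was higher in co-culture. It had 3.76, 2.86 and 2.49 CPM in p53-/- co-culture, against 1.36, 1.69 and 1.33 CPM in p53-/- alone. Its p53+/+ values were 4.47, 3.82 and 3.74 CPM in p53+/+ co-culture, against 0.7499, 1.34 and 2.34 CPM in p53+/+ alone. The groups did not overlap, and Kcnd1 rose by 1.05 ± 0.34 (SE, adjusted p = 0.0268) in p53-/- and 1.42 ± 0.33 (SE, adjusted p = 0.00499) in p53+/+ NPCs. The first of these calls was lost in 6 of 15 fits with libraries left out, 4 of them without 1 library (adjusted p up to 0.135), the second without experiment 25_9 (adjusted p = 0.0992). Kcnd3 was more abundant, with means of 237 ± 36.95 CPM in p53-/- co-culture and 223 ± 52.2 CPM in p53-/- alone and of 196 ± 31.5 CPM in p53+/+ co-culture and 241 ± 26.6 CPM in p53+/+ alone (SD, n = 3 each). Its log2 fold changes of 0.09 and -0.30 were not past the threshold (adjusted p = 0.743 and 0.21), with 95% intervals of -0.304 to 0.478 and -0.689 to 0.0942. Kcnd2 was not called in either genotype.

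Silent Kv subunits form no channel alone and join Kv2 subunits to change their current. Of 6 tested, 1 was higher in p53-/- co-culture, and 2 were higher and 1 lower in p53+/+ co-culture. Kcns3 had 1.199, 1.73 and 1.11 CPM in p53+/+ co-culture, against 0.438, 0.248 and 0.305 CPM in p53+/+ alone. It rose by 2.03 ± 0.35 (SE, adjusted p = 0.000753) with no overlap, a call lost without experiment 25_9 (adjusted p = 0.0692). In p53-/- NPCs Kcns3 differed by 1.10 ± 0.46 (SE, adjusted p = 0.0991). Kcns1 had 1.96, 1.46 and 0.421 CPM in p53+/+ co-culture, against 0.125, 0 and 0.203 CPM in p53+/+ alone. It rose by 3.49 ± 0.80 (SE, adjusted p = 0.00427), a call lost without experiment 17_9 (adjusted p = 0.0516), and in p53-/- NPCs it differed by 1.43 ± 0.79 (SE, adjusted p = 0.177). For both genes the interaction was not past the threshold (adjusted p = 0.81 and 0.761). Kcns3 and Kcns1 passed the filter on low counts only through co-culture libraries, where they are high, so their calls are no separate support for a rise. Kcng4 averaged 2.61 ± 1.09 CPM in p53-/- co-culture and 1.01 ± 0.475 CPM in p53-/- alone (SD, n = 3), higher by 1.35 ± 0.44 (SE, adjusted p = 0.0306), a call lost in 6 of 15 fits with libraries left out, 4 of them without 1 library (adjusted p up to 0.26). In p53+/+ NPCs Kcng4 differed by 1.08 ± 0.41 (SE, adjusted p = 0.0533), and with the block by 1.09 (adjusted p = 0.00361). Kcnv1 had 0.708, 1.32 and 1.84 CPM in p53+/+ co-culture, against 2.62, 3.58 and 2.54 CPM in p53+/+ alone. It was lower, with a log2 fold change of -1.17 ± 0.40 (SE, adjusted p = 0.0328), a call lost in 5 of 15 fits with libraries left out, 3 of them without 1 library (adjusted p up to 0.225), and its log2 fold change in p53-/- NPCs was -0.59 ± 0.37 (SE, adjusted p = 0.232). Kcnf1 and Kcng1 were not called.

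Kv7 (KCNQ) channels carry slow current that steadies the membrane, the M-current of neurons among them. Kcnq1, known from heart and epithelia, had 44 counts over the 3 co-culture libraries in p53-/- and 46 in p53+/+ NPCs, against 1 count over the 3 libraries alone in each genotype. The ratios were 45.7 (95% interval 7.79 to 1850) in p53-/- and 43.3 (7.39 to 1750) in p53+/+ NPCs, for counting error only. Both were past the threshold (edgeR, adjusted p = 0.000314 and 0.000246). However, Kcnq1 passed the filter on low counts only through the co-culture libraries, where it is high, so these tests are no separate support for its rise. Kcnq1 shares exonic sequence with Kcnq1ot1 on the other strand. Kcnq3, a subunit of the M-channel, had 3.35, 1.91 and 0.868 CPM in p53-/- co-culture, against 0.145, 0.4099 and 0.333 CPM in p53-/- alone. In p53+/+ NPCs it had 0.4904, 0.4096 and 0.527 CPM in p53+/+ co-culture, against 0.4999, 0.149 and 0.203 CPM in p53+/+ alone. Only the p53-/- groups stood apart: Kcnq3 rose there by 2.76 ± 0.54 (SE, adjusted p = 0.00216), and in p53+/+ NPCs it differed by 0.78 ± 0.63 (SE, adjusted p = 0.348). Experiment 17_9 was highest in p53-/- co-culture, and the interaction of 1.99 was not past the threshold (adjusted p = 0.7). Kcnq5 was called only with the block, lower in p53+/+ co-culture, with a log2 fold change of -0.42 (adjusted p = 0.0411).

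EAG, ERG and ELK channels are voltage-gated, and Kcnh2 of this group repolarizes the heart. Of 5 tested, 1 was higher in p53-/- co-culture, and 1 was higher and 1 lower in p53+/+ co-culture. Kcnh4, an ELK gene, averaged 1.11 ± 0.173 CPM in p53-/- co-culture and 0.4403 ± 0.199 CPM in p53-/- alone and 1.01 ± 0.0906 CPM in p53+/+ co-culture and 0.342 ± 0.211 CPM in p53+/+ alone (SD, n = 3 each). It rose by 1.34 ± 0.42 (SE, adjusted p = 0.0237) and 1.50 ± 0.44 (SE, adjusted p = 0.0156). The p53-/- call was lost in 6 of 15 fits with libraries left out, 4 of them without 1 library (adjusted p up to 0.224), and the p53+/+ call without experiment 17_9, 25_9 or 1_10 (adjusted p up to 0.0848). Kcnh4 passed the filter on low counts only with co-culture libraries, where it is high, so these calls are no separate support for a rise. Kcnh8, also of the ELK type, had 0.436, 0.228 and 0.474 CPM in p53+/+ co-culture, against 0.875, 0.794 and 0.712 CPM in p53+/+ alone. It was lower, with a log2 fold change of -1.07 ± 0.35 (SE, adjusted p = 0.0297), a call lost in 8 of 15 fits with libraries left out, 5 of them without 1 library (adjusted p up to 0.281) and not made by DESeq2 (adjusted p = 0.0796), by DESeq2 with the block, with no filter on low counts or in a fit of the compared groups only. In p53-/- NPCs Kcnh8 differed by -0.62 ± 0.30 (SE, adjusted p = 0.13). Kcnh7, an ERG gene, was called in p53-/- co-culture only with the block, by 0.79 (adjusted p = 0.0412). Kcnh2 and Kcnh5 were not called.

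Inward rectifiers pass potassium more easily into the cell than out and hold the resting potential, in glia above all. Of 6 tested, 2 were higher in each genotype and none was lower in edgeR. Kcnj16 had 101, 107 and 137 CPM in p53-/- co-culture, against 59.5, 72.7 and 91.99 CPM in p53-/- alone. In p53+/+ NPCs it had 153, 151 and 162 CPM in p53+/+ co-culture, against 79.05, 93.8 and 105 CPM in p53+/+ alone. The groups did not overlap, and Kcnj16 rose by 0.62 ± 0.17 (SE, adjusted p = 0.0126) and 0.75 ± 0.17 (SE, adjusted p = 0.00383). The p53-/- call was lost in 2 of 15 fits with libraries left out, among them without p53-/- alone 17_9 (adjusted p up to 0.111), and the p53+/+ call without experiment 25_9 (adjusted p = 0.0722). Kcnj14 had 3.21, 2.66 and 1.79 CPM in p53-/- co-culture, against 1.11, 1.32 and 0.721 CPM in p53-/- alone. Its p53+/+ values were 4.58, 3.504 and 1.897 CPM in p53+/+ co-culture, against 0.4999, 0.844 and 0.865 CPM in p53+/+ alone. Every co-culture value lay above those alone, by 1.27 ± 0.38 (SE, adjusted p = 0.0196) and 2.15 ± 0.39 (SE, adjusted p = 0.00102), and the p53-/- call was lost in 5 of 15 fits with libraries left out, 3 of them without 1 library (adjusted p up to 0.115). Kcnj2, a strong inward rectifier, had 5.31, 5.88 and 8.84 CPM in p53-/- co-culture, against 37.6, 4.83 and 10.1 CPM in p53-/- alone. In p53+/+ NPCs it had 4.58, 3.82 and 5.58 CPM in p53+/+ co-culture, against 54.7, 5.51 and 6.36 CPM in p53+/+ alone. Experiment 17_9 stood far above the other libraries alone in both genotypes, and Kcnj2 was not called in edgeR, at -1.39 ± 0.82 (SE, adjusted p = 0.203) and -2.24 ± 0.85 (SE, adjusted p = 0.0513). DESeq2 called it lower in p53+/+ co-culture (adjusted p = 0.0414). Those 2 libraries also had the highest summed levels of 13 mural and fibroblast markers, 1250 CPM in p53-/- alone and 785 CPM in p53+/+ alone, against medians of 201 and 207 CPM in these groups. Most of each sum came from Acta2 and Tagln, with 765.3 and 440.5 CPM in the p53-/- library and 431.5 and 239.8 CPM in the p53+/+ one. Other markers of the list did not all rise with them. In p53-/- alone, experiment 17_9 had 34.1 CPM of Notch3 against 81.4 and 54.8, and 2.91 CPM of Pdgfrb against 3.28 and 2.44. The part of such cells was not tested. Kcnj4, Kcnj11 and Kcnj12 were not called.

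K2P channels are the leak channels of the resting cell. Of 6 tested, 1 was higher and 1 lower in p53-/- co-culture, and 3 were higher and 1 lower in p53+/+ co-culture. Kcnk5, an acid-sensitive channel of the TASK and TALK type known from kidney, was lower. It had 3.51, 3.97 and 4.01 CPM in p53-/- co-culture, against 7.27, 10.4 and 9.1 CPM in p53-/- alone. Its p53+/+ values were 1.74, 2.69 and 2.11 CPM in p53+/+ co-culture, against 4.62, 6.95 and 6.66 CPM in p53+/+ alone. No co-culture library reached those alone, and the log2 fold change of Kcnk5 was -1.22 ± 0.23 (SE, adjusted p = 0.0016) in p53-/- and -1.48 ± 0.24 (SE, adjusted p = 0.000456) in p53+/+ NPCs. Kcnk3, a TASK channel, went up from a low level, with means of 1.21 ± 0.341 CPM in p53-/- co-culture and 0.395 ± 0.294 CPM in p53-/- alone and 1.24 ± 0.178 CPM in p53+/+ co-culture and 0.3797 ± 0.267 CPM in p53+/+ alone (SD, n = 3 each). It rose by 1.56 ± 0.55 (SE, adjusted p = 0.0401) and 1.74 ± 0.56 (SE, adjusted p = 0.0264). The p53-/- call was lost in 9 of 15 fits with libraries left out, 6 of them without 1 library (adjusted p up to 0.179) and in a fit of the compared groups only, and the p53+/+ call in 6 of 15 fits with libraries left out, 4 of them without 1 library (adjusted p up to 0.263). Kcnk2 and Kcnk10 encode the stretch- and lipid-sensitive TREK channels. Kcnk2 had 92.2, 94.6 and 84.5 CPM in p53+/+ co-culture, against 82.7, 67.3 and 68.9 CPM in p53+/+ alone. It rose by 0.31 ± 0.11 (SE, adjusted p = 0.0444), a call lost in 11 of 15 fits with libraries left out, 9 of them without 1 library (adjusted p up to 0.392), with no filter on low counts and in a fit of the compared groups only, and in p53-/- NPCs it differed by 0.19 ± 0.11 (SE, adjusted p = 0.206). Kcnk10 averaged 28.2 ± 3.77 CPM in p53+/+ co-culture and 17.6 ± 5.67 CPM in p53+/+ alone (SD, n = 3), with 1 library alone (24.2 CPM, experiment 17_9) inside the range in co-culture. It rose by 0.68 ± 0.20 (SE, adjusted p = 0.0174), a call lost in 5 of 15 fits with libraries left out, 3 of them without 1 library (adjusted p up to 0.223), and in p53-/- NPCs it differed by 0.11 ± 0.20 (SE, adjusted p = 0.691). Kcnk1 was as high in co-culture as alone within its spread, at 0.12 ± 0.14 (SE, adjusted p = 0.538) and 0.03 ± 0.14 (SE, adjusted p = 0.887), with 95% intervals of -0.181 to 0.418 and -0.268 to 0.324. Kcnk13 was not called.

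Of 9 auxiliary subunits tested, 2 were higher in p53-/- and 1 in p53+/+ co-culture. Kcnab2, the beta subunit that carries Kv1 channels to the axon, averaged 19.9 ± 2.75 CPM in p53-/- co-culture and 13.3 ± 3.44 CPM in p53-/- alone and 18.5 ± 1.92 CPM in p53+/+ co-culture and 12.1 ± 2.05 CPM in p53+/+ alone (SD, n = 3 each). It rose by 0.58 ± 0.19 (SE, adjusted p = 0.033) and 0.61 ± 0.20 (SE, adjusted p = 0.0252). Calls on Kcnab2 were lost in 6 of 15 fits with libraries left out, 4 of them without 1 library (adjusted p up to 0.15) and in a fit of the compared groups only in p53-/-, and in 6 of 15 fits with libraries left out, 4 of them without 1 library (adjusted p up to 0.129) in p53+/+ NPCs. Kcnip2, a calcium-binding partner of Kv4 channels, had 1.102, 0.954 and 0.3795 CPM in p53-/- co-culture, against 0.339, 0.228 and 0.0555 CPM in p53-/- alone. It rose by 1.91 ± 0.53 (SE, adjusted p = 0.0145), a call lost in 3 of 15 fits with libraries left out, among them without p53-/- co-culture 17_9 (adjusted p up to 0.157). In p53+/+ NPCs Kcnip2 differed by 1.18 ± 0.56 (SE, adjusted p = 0.111), and with the block by 1.18 (adjusted p = 0.0308). Kcnip2 also passed the filter on low counts only through co-culture libraries, where it is high. Kcnip3 was called only with the block, higher by 0.39 (adjusted p = 0.0195) in p53-/- and 0.38 (adjusted p = 0.0184) in p53+/+ co-culture. Kcnab1, Kcnab3, Kcne1l, Kcnip1, Kcnmb1 and Kcnmb4 were not called. The antisense entry Kcnd3os was lower in p53+/+ co-culture with the block only, with a log2 fold change of -0.67 (adjusted p = 0.032).

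Without the block, loss of p53 changed few potassium channel genes. Alone, 1 of the 57 was higher and 3 lower in p53-/- than in p53+/+ NPCs (1.75 and 5.26%), against 2.02 and 4.27% of all genes. On bmvECs the counts were 2 and 4 (3.51 and 7.02%), against 3.24 and 4.93% of all genes. In this fit the shares were thus near those of all genes in both. With the block, 19.3% were lower in each comparison, against 9.33% of all genes alone and 10.9% in co-culture. Median log2 fold changes over the 57 were -0.0861 alone and 0.0492 in co-culture, where those of all genes were 0.054 and 0.0245. Kcnc1 and Kcnk1 were lower in both comparisons, which share no library.

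Kcnc1 had 179, 249 and 255 CPM in p53-/- alone, against 395, 543 and 661 CPM in p53+/+ alone. In co-culture Kcnc1 had 122, 128 and 157 CPM in p53-/- co-culture, against 246, 251 and 373 CPM in p53+/+ co-culture. The p53-/- libraries lay below all p53+/+ libraries in each culture, by a log2 fold change of -1.23 ± 0.22 (SE, adjusted p = 0.00548) alone and -1.10 ± 0.22 (SE, adjusted p = 0.00927) in co-culture. Without experiment 25_9 both calls on Kcnc1 were lost (adjusted p = 0.125 alone and 0.216 in co-culture). In that fit 0.777% of all genes were lower alone and 0.29% in co-culture, so fewer of all genes passed as well. Kcnk1, the TWIK leak channel of astrocytes, had 40.2, 30.01 and 28.4 CPM in p53-/- alone, against 59.8, 59.9 and 52.6 CPM in p53+/+ alone. In co-culture Kcnk1 had 37.2, 31.9 and 38.1 CPM in p53-/- co-culture, against 58.2, 60.98 and 56.5 CPM in p53+/+ co-culture. Again no library of 1 genotype reached the other, with -0.81 ± 0.14 (SE, adjusted p = 0.00456) alone and -0.71 ± 0.14 (SE, adjusted p = 0.00878) in co-culture. Its calls were likewise lost without experiment 25_9 (adjusted p = 0.166 alone and 0.291 in co-culture). Kcnk2 was lower in co-culture, with 63.1, 67.1 and 63.9 CPM in p53-/- co-culture, against 92.2, 94.6 and 84.5 CPM in p53+/+ co-culture. It differed by -0.48 ± 0.11 (SE, adjusted p = 0.0216), a call lost in 7 of 15 fits with libraries left out, 4 of them without 1 library (adjusted p up to 0.331). Alone, the log2 fold change of Kcnk2 was -0.36 ± 0.11 (SE, adjusted p = 0.0768), and with the block -0.36 (adjusted p = 0.0282).

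Kcnma1, the large-conductance (BK) channel gated by voltage and calcium together, had the largest change alone among the genes called. It had 3.92, 7.74 and 5.94 CPM in p53-/- alone, against 16.1, 19.6 and 17.9 CPM in p53+/+ alone. The lowest p53+/+ library (16.1 CPM) was far above the highest p53-/- library (7.74 CPM), and Kcnma1 was lower, with a log2 fold change of -1.60 ± 0.21 (SE, adjusted p = 0.000705), the only call of this comparison kept in all 15 fits with libraries left out. In co-culture Kcnma1 had 9.16, 8.64 and 7.54 CPM in p53-/- co-culture, against 12.4, 11.9 and 13.3 CPM in p53+/+ co-culture. Those groups did not overlap either, but the log2 fold change was -0.57 ± 0.21 (SE, adjusted p = 0.11), and with the block -0.57 (adjusted p = 0.0496). Kcnc4 was higher in p53-/- NPCs alone, with 1.79, 2.82 and 2.497 CPM in p53-/- alone, against 0.562, 1.04 and 0.814 CPM in p53+/+ alone. It differed by 1.53 ± 0.31 (SE, adjusted p = 0.0125), a call lost in 4 of 15 fits with libraries left out, among them without p53+/+ alone 17_9 (adjusted p up to 0.185) and in a fit of the compared groups only. In co-culture, Kcns3 had 0.351, 0.352 and 0.271 CPM in p53-/- co-culture, against 1.199, 1.73 and 1.11 CPM in p53+/+ co-culture. It was lower, with a log2 fold change of -2.03 ± 0.35 (SE, adjusted p = 0.00484), a call lost without experiment 25_9 (adjusted p = 0.237). Kcnh7 was higher, with 2.304, 2.06 and 2.33 CPM in p53-/- co-culture, against 0.599, 0.728 and 0.738 CPM in p53+/+ co-culture. It differed by 1.68 ± 0.36 (SE, adjusted p = 0.0146), a call lost in 4 of 15 fits with libraries left out, among them without p53+/+ co-culture 17_9 and p53+/+ co-culture 25_9 (adjusted p up to 0.224). Kcnq3 was higher by 2.10 ± 0.51 (SE, adjusted p = 0.0248) in co-culture, a call lost in 6 of 15 fits with libraries left out, 4 of them without 1 library (adjusted p up to 0.338). Kcns3 passed the filter on low counts only through p53+/+ co-culture, where it is high, and Kcnq3 only through co-culture libraries.

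**Figure D4:**
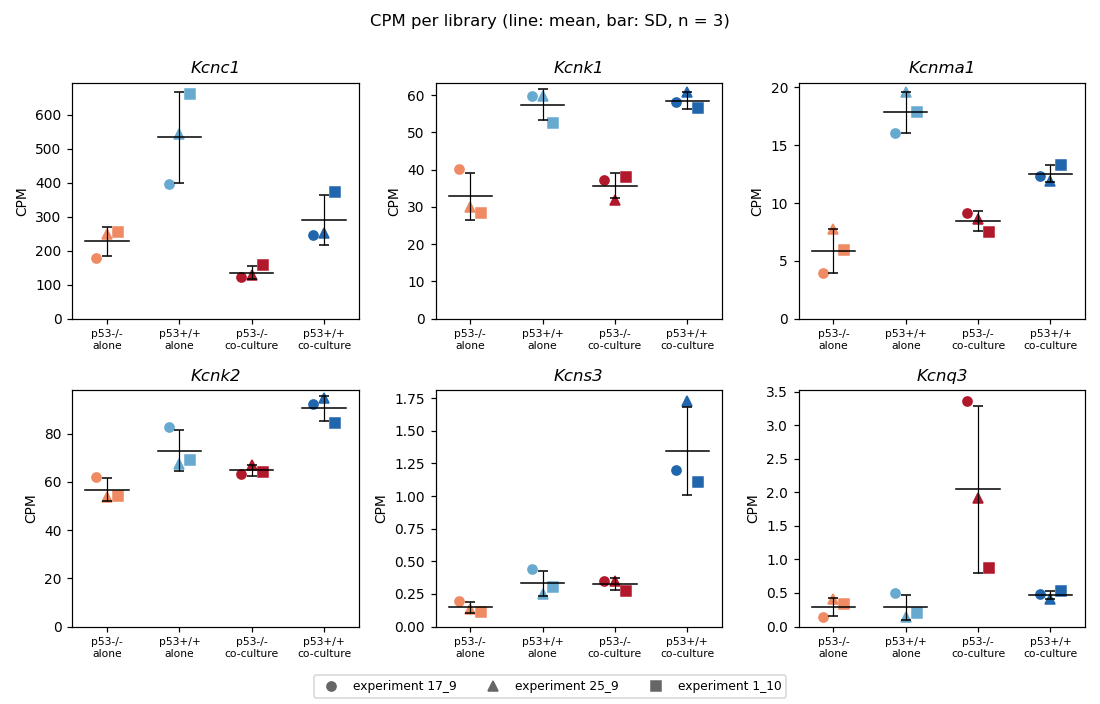
CPM per library of Kcnc1, Kcnk1, Kcnma1, Kcnk2, Kcns3 and Kcnq3 in p53-/- alone, p53+/+ alone, p53-/- co-culture and p53+/+ co-culture, with 1 symbol per experiment, the mean as a line and the SD as a bar (n = 3). Kcnc1 and Kcnk1 are lower in every p53-/- library than in any p53+/+ library of the same culture, and Kcnma1 is farthest apart alone.

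With the experiment as a block, more genes passed in the p53 comparisons. Alone, the block gave 3 higher and 11 lower genes (5.26 and 19.3%), against 7.25 and 9.33% of all genes. For co-cultured NPCs it gave 7 and 11 (12.3 and 19.3%), against 9.99 and 10.9% of all genes. In both comparisons 9 genes were lower and 2 higher with the block. Among those added alone were the voltage-gated or silent subunit genes Kcna1 (-1.55, adjusted p = 0.002), Kcna5 (-1.40, adjusted p = 0.00828), Kcna6 (-0.86, adjusted p = 0.0234) and Kcng4 (-1.12, adjusted p = 0.0235), all lower in p53-/- NPCs on the log2 scale. Also added alone were Kcnj4 (-0.90, adjusted p = 0.0414) and Kcnk2 (-0.36, adjusted p = 0.0282), lower, and Kcnh2 (0.68, adjusted p = 0.0333) and Kcnk5 (0.56, adjusted p = 0.0285), higher. In co-culture, the lower ones added included Kcna6 (-0.91, adjusted p = 0.0101) and Kcng4 (-0.82, adjusted p = 0.034), together with Kcnj4 (-1.05, adjusted p = 0.0205), Kcnj16 (-0.45, adjusted p = 0.0107) and Kcnma1 (-0.57, adjusted p = 0.0496). Those added as higher were Kcnd2 (0.72, adjusted p = 0.0457), Kcnh2 (0.58, adjusted p = 0.049), Kcnh8 (1.21, adjusted p = 0.0257), Kcnj12 (1.30, adjusted p = 0.0214) and Kcnk5 (0.82, adjusted p = 0.00645). In edgeR none of these passed without the block, while DESeq2 without it also called Kcna1 and Kcnk2 lower alone, and Kcnj4 lower and Kcnk5 higher in co-culture. Kcnj12 passed the filter on low counts only with p53-/- libraries, and Kcna5 only with p53+/+ libraries, where each is high. The calls on Kcnj12 and Kcna5 are thus no separate support for a difference. Kcna6 shows the size: its means were 12.9 ± 7.32 CPM in p53-/- alone and 22.9 ± 5.58 CPM in p53+/+ alone, and 52.9 ± 15.5 CPM in p53-/- co-culture and 98.5 ± 23.3 CPM in p53+/+ co-culture (SD, n = 3 each).

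The interaction tests whether the change with co-culture differed between p53-/- and p53+/+ NPCs. Of the 57 genes, 0 passed in edgeR, against 0.0364% of all genes, and 0 with the block, against 0.0800%. In DESeq2, 0 of 54 with an adjusted p passed, against 0.141% of all genes. At an unadjusted p under 0.05 there were 3 of 57 in edgeR, Kcnc4, Kcnma1 and Kcnq3, against 976 of all 13745 genes (7.10%). With the block there were 7 of 57, against 1870 of 13745. DESeq2 with the block called 1 of 38 with an adjusted p (2.63%), Kcnma1, at 1.06 ± 0.29 (SE, adjusted p = 0.019), against 2.22% of all genes. Kcnma1 had 9.16, 8.64 and 7.54 CPM in p53-/- co-culture, against 3.92, 7.74 and 5.94 CPM in p53-/- alone. In p53+/+ NPCs Kcnma1 had 12.4, 11.9 and 13.3 CPM in p53+/+ co-culture, against 16.1, 19.6 and 17.9 CPM in p53+/+ alone. In each experiment its level was higher in co-culture than alone in p53-/- NPCs and lower in p53+/+ NPCs. By edgeR the change was 0.52 ± 0.21 (SE, adjusted p = 0.0701) in p53-/- and -0.51 ± 0.20 (SE, adjusted p = 0.0639) in p53+/+ NPCs, and with the block 0.55 (adjusted p = 0.0352) and -0.50 (adjusted p = 0.0367). The interaction on Kcnma1 was 1.03 ± 0.29 (SE, adjusted p = 0.666) in edgeR and 1.05 (adjusted p = 0.152) with the block.

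Of the 57 tested genes, 33 were called in at least 1 comparison by edgeR and 24 in none, 16 of these also not with the block. Among the 24, DESeq2 without the block called Kcnj2 lower in p53+/+ co-culture and Kcnj4 lower with loss of p53 in co-culture. The 24 were Kcna3, Kcna5, Kcnab1, Kcnab3, Kcnc2, Kcnd2, Kcnd3, Kcnd3os, Kcne1l, Kcnf1, Kcng1, Kcnh2, Kcnh5, Kcnip1, Kcnip3, Kcnj11, Kcnj12, Kcnj2, Kcnj4, Kcnk13, Kcnmb1, Kcnmb4, Kcnq5 and Kcnu1. Of the 33 genes that had counts and did not pass the filter, Kcna4 held the most, 90 counts over the 12 libraries, and Kcnj1, Kcnk15, Kcnmb2 and Kcnmb3 held 1 each. Others were Kcna10, Kcna7, Kcnb2, Kcne1, Kcne2, Kcne3, Kcne4, Kcng2, Kcng3, Kcnh1, Kcnh3, Kcnh6, Kcnip4, Kcnj13, Kcnj15, Kcnj3, Kcnj5, Kcnj6, Kcnj8, Kcnj9, Kcnk12, Kcnk4, Kcnk6, Kcnk7, Kcnk9, Kcns2 and Kcnt2. Kcnj8, the pore of a vascular ATP-sensitive channel, had 31 counts in p53+/+ co-culture against 3 in p53+/+ alone, a ratio of 9.72 (95% interval 3.03 to 49.7, counting error only). Its counts in p53-/- NPCs were 9 in co-culture and 4 alone. Kcnh6, an ERG gene, had 14 counts in p53-/- co-culture against 1 in p53-/- alone, a ratio of 14.6 (2.21 to 615). Its counts in p53+/+ NPCs were 8 in co-culture and 2 alone. Kcnk16, Kcnk18, Kcnmb4os1 and Kcnv2 had no count in any library, which says only that they were not detectable at this depth.

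Genes that work with these channels were counted in the same fits. There, co-culture raised 18.8 and lowered 17.0% of all 13745 genes tested in p53-/- NPCs, and 21.2 and 18.3% in p53+/+ NPCs. The sodium-potassium pump builds the potassium gradient, and of 10 tested subunits co-culture raised 7 and lowered 1 in p53-/- NPCs and raised 6 and lowered 0 in p53+/+ NPCs, with median log2 fold changes of 1.60 and 1.59. The summed level of the 11 listed subunits was 4900 to 6240 CPM in p53-/- co-culture against 1380 to 1690 CPM in p53-/- alone, and 6500 to 7520 CPM in p53+/+ co-culture against 1650 to 1680 CPM in p53+/+ alone. Of 8 tested auxiliary or regulatory proteins outside the 94 genes, Kcnj10 among them, 3 were higher and 0 lower in p53-/- and 3 higher and 1 lower in p53+/+ co-culture. Of 5 cation-chloride cotransporters, 0 were called in p53-/- and 1 was higher in p53+/+ co-culture, and of 2 hyperpolarization-activated cation channels 1 was higher in p53-/- and 0 were called in p53+/+ co-culture. With loss of p53, the pump subunits gave 0 higher and 1 lower alone and 1 higher and 1 lower in co-culture.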

How the data were processed

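The deposited table held raw counts of reads per gene for 12 libraries, which the authors made from stranded poly(A) RNA-seq (TruSeq). The submitters' processing notes name TopHat2 2.0.11, HTSeq 0.6.1 and the build mm9, and the strand setting of the counting is not given in the sources used here. The table's columns give the group by a code explained in the study's supplementary key, and an experiment number (17_9, 25_9 or 1_10), but not which titled repeat they are. Every per-sample column was used.

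All 12 libraries were fitted together with 1 coefficient per group in edgeR 4.0.16 (R 4.3.3) with TMM factors (0.961 to 1.04), the filterByExpr filter (13745 of 24108 genes) and quasi-likelihood tests, with Benjamini-Hochberg adjustment over all genes tested and a threshold of 0.05. Changes are log2 fold changes and SE is the change divided by the root of its F statistic. CPM was scaled to the TMM-effective library size. The filter keeps a gene that reaches its level in 3 libraries, so a gene near 0 in some groups can pass through the groups where it is high. The key states that equal experiment numbers are paired. Same-numbered libraries of different groups deviated together (18 of 18 pairs, r 0.128 to 0.618, against -0.608 to 0.241 in 36 other pairs), so the experiment was also fitted as a replicate block, which in p53+/+ co-culture gave 24 higher and 8 lower genes. Replicates differed by 13.2 to 62.5 times the counting variance, so none was a copy of another. The 3 repeats are described as independent. DESeq2 1.42.0, library-size scaling, other filters, fits on the compared groups only and 15 fits without 1 library or 1 experiment were tried. The edgeR code was tested on simulated data.

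Every gene called in any comparison is named, except that a few genes are not reported here by name, although they stay in the fits and counts. Per-library values are given for the 6 called genes with the largest change on each side with an average log2 CPM not under 0, and for others that illustrate a family, chosen after their values were seen. The genes and gene lists were chosen with earlier results of these data known. Exon lengths and overlaps came from GENCODE M21 and promoter sequences from RefSeq (GRCm38.p6). No coordinates were carried between builds. Intervals on sums of counts cover counting error only.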

Additional observations from a re-analysis of the deposited data

Results flagged for a closer look

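Kcnma1, the BK channel gene, had a change with co-culture that differed between the genotypes in 1 of the fits. The interaction was 1.06 ± 0.29 on the log2 scale (SE, adjusted p = 0.019) in DESeq2 with the experiment as a block. It was the only call among 38 potassium channel genes with an adjusted p in that fit (2.63%), in which 2.22% of all genes were called. It was not past the threshold in edgeR (adjusted p = 0.666), in edgeR with the block (adjusted p = 0.152) or in DESeq2 without it (adjusted p = 0.172). The levels were 9.16, 8.64 and 7.54 CPM in p53-/- co-culture, against 3.92, 7.74 and 5.94 CPM in p53-/- alone. In p53+/+ NPCs they were 12.4, 11.9 and 13.3 CPM in co-culture, against 16.1, 19.6 and 17.9 CPM alone.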

How the results depend on the processing

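The 56 calls made in edgeR were followed through the alternatives in which the gene was tested: none reversed its direction, 1104 values kept the call and 164 lost it. Calls gained are in the counts below, with shares of all genes in the same fit. With the experiment as a replicate block, lower genes numbered 8 in p53+/+ co-culture (14%, against 24.1% of all genes). Loss of p53 gave 3 higher and 11 lower alone (5.26 and 19.3%, against 7.25 and 9.33%) and 7 and 11 in co-culture (12.3 and 19.3%, against 9.99 and 10.9%). DESeq2 with the block gave 3 and 11 alone (5.56 and 20.4%, against 8.15 and 10.9%) and 5 and 11 in co-culture (8.77 and 19.3%, against 10.4 and 11.6%). It gave 1 in the interaction (2.63%, against 2.22%), and DESeq2 without the block gave 6 lower alone (11.1%, against 7.09%). With at least 10 counts in every library, 37 of the genes were tested: 13 were higher in p53+/+ co-culture (35.1%, against 20.5%), and 0 with loss of p53 alone (1.75%) or in co-culture (3.43%). Fitting only the groups compared left 0 higher with loss of p53 alone (0.32%). Leaving out 1 library or 1 experiment gave 9 to 21 higher and 1 to 6 lower genes in p53+/+ co-culture (8.77 to 21.9 and 5.66 to 21% of all genes), and 10 to 24 higher and 1 to 2 lower in p53-/- co-culture (9.75 to 19.6 and 5.83 to 18.8% of all genes). With loss of p53 these fits gave 0 to 3 higher and 1 to 5 lower alone (0.0943 to 1.58 and 0.777 to 4.88% of all genes). In co-culture they gave 0 to 4 higher and 0 to 5 lower (0.0145 to 4.24 and 0.29 to 5.68%), and in the interaction 0 (0 to 0.0429%). The shares of all genes thus varied across these fits as well. Library size without TMM turned the balance of all genes in p53-/- against p53+/+ co-culture to 624 higher and 555 lower, where TMM gave 445 and 677. The causes of these differences were not tested. Genes with few counts are limited by depth.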
